A study of Populus sp. cv. 'Okanese' with 18 samples.

Results

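The comparison described here sets leaves of hybrid poplar taken in the early evening against leaves taken in the late morning, both from trees held under severe drought. It comprised 6 of the 18 libraries of the series, chosen by their titles: 3 libraries of leaves sampled at 16 h (early evening, EE) and 3 of leaves sampled at 10 h (late morning, LM), all at 30 % SWCg. SWCg is the gravimetric soil water content, given here as a percentage of field capacity, although the sample labels write g/g as its unit. The groups are named EE30 and LM30, with replicate letters A, B and C. The other 12 libraries came from the same 2 times of day at 50 and 80 % SWCg (EE50, LM50, EE80 and LM80), and they are used below only to show how far the evening change at 30 % SWCg differed from that at the other water levels.

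All trees were greenhouse-grown cuttings of *Populus* × 'Okanese', a single hybrid clone, so the 3 replicates of a group do not sample genetic variation. The leaves had developed during the water treatment. The labels do not state which tree a library came from, nor whether a letter links the 2 times, so the p-values reflect only the variation between the sequenced libraries. The deposited column names carry 1 run tag for every LM library and another for every EE library, and time of day and this tag cannot be told apart. Per the study, pots were watered back each morning to the upper limit of their target. Time since watering and actual soil water may thus differ between the 2 times, and neither can be told apart from time of day. Whole leaves were sequenced, and in such bulk tissue a lower share of a cell type and less RNA per cell cannot be told apart. Markers of leaf cell types were not examined, since the table of counts does not pair gene IDs with names.

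Plant leaves change much of their transcriptome over the day. In *Arabidopsis*, from which most of the roles given below are known, a circadian clock built from interlocked repressors drives part of that rhythm: MYB-type factors such as CCA1 peak near dawn, the pseudo-response regulators PRR9, PRR7 and PRR5 follow one another from morning to afternoon, and GI and the evening complex with LUX peak late in the day. Stomata, photosynthesis and water transport also follow daily programmes, and the water status of a droughted leaf itself changes between morning and evening.

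The total count, which counts the reads placed in genes, was between 26807509 and 33917159 in EE30 and between 19060025 and 22859393 in LM30. The table held 31033 genes, of which 23700 had an average log2 CPM above −2 and below 9 over the 18 libraries and were tested. For these limits CPM was taken over all counts of a library, without scaling. Below, CPM is the count of a gene per 1000000 counts over the tested genes, scaled by the TMM factors of edgeR. Libraries of 1 time of day were more alike than libraries of different times. The correlation of log2 CPM across genes was 0.9791 to 0.9911 among the EE30 libraries and 0.9788 to 0.9876 among the LM30 libraries, against 0.8984 to 0.9282 between an EE30 and an LM30 library. EE30 C had the highest correlations with LM30 (0.9157 to 0.9282), and LM30 B the lowest correlations within its own group. These values describe 6 libraries across genes, which are not independent. The median SD of a gene over the 3 libraries was 0.144 in EE30 and 0.181 in LM30 on the log2 CPM scale.

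A large share of the tested genes differed between evening and morning at 30 % SWCg. With the quasi-likelihood test of edgeR and Benjamini-Hochberg adjustment, 12651 genes passed an adjusted p of 0.05, which is 53.4 % of those tested. Of these, 6710 genes were higher in EE30 (28.3 % of those tested) and 5941 were lower (25.1 %). Among the called genes 53 % were thus higher in EE30, a lean that DESeq2 (49.8 %) did not show. Without EE30 C and LM30 B, the libraries that stood furthest from their groups, 11855 genes were called, and a fit of the 6 compared libraries alone called 10838 (45.7 %). For 13595 genes (57.4 %) the 3 EE30 libraries did not overlap the 3 LM30 libraries, with 7314 of them higher in EE30 (30.9 %) and 6281 lower (26.5 %). The call and the separation of the libraries largely went together, although 723 called genes, or 5.71 % of the calls, had overlapping libraries. Among genes that were not called, 15.1 % had groups that did not overlap.

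Most of these changes were moderate in size. Over the called genes the log2 fold change had a median size of 0.759, with 0.76 for those higher in EE30 and −0.757 for those lower. A test against a change of 2-fold (glmTreat of edgeR, adjusted p below 0.05) left 2475 genes, or 10.4 % of those tested, of which 1443 were higher in EE30 (6.09 %) and 1032 lower (4.35 %). The largest changes leaned towards the evening. A log2 fold change above 3 was estimated for 281 genes called higher in EE30, against 180 called lower with a value below −3. Beyond 5 on the same scale there were 42 called higher and 24 called lower.

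**Figure D1:**
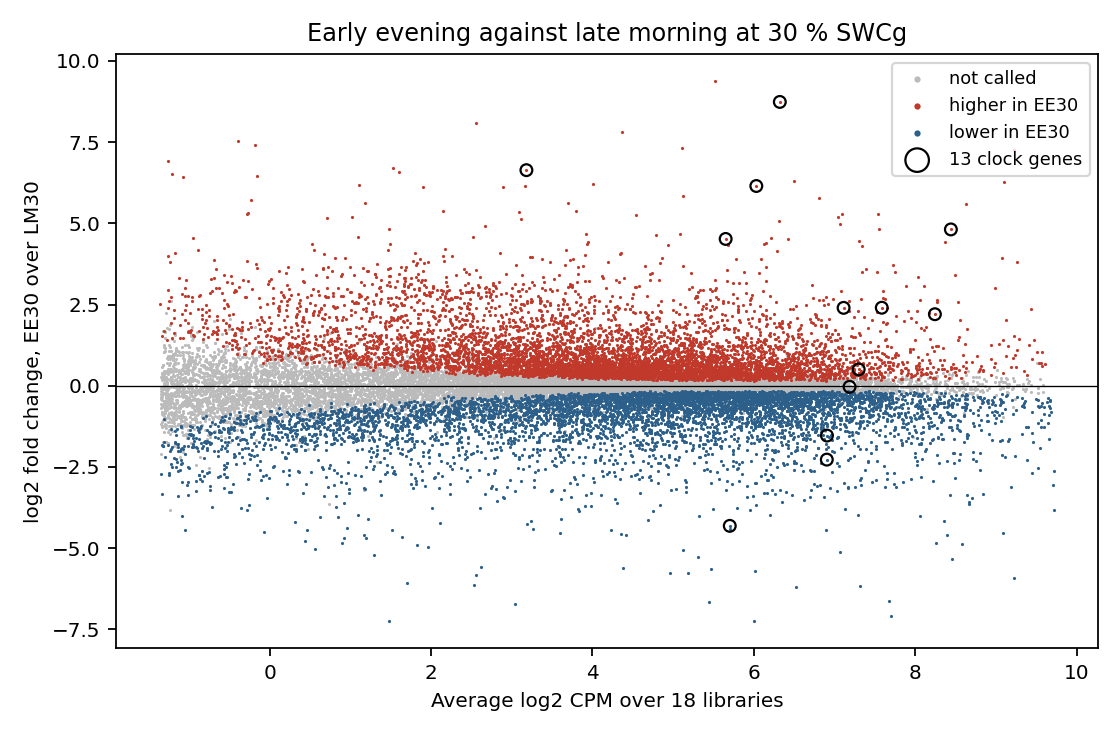
Each point is 1 of the 23700 tested genes, with the average log2 CPM over 18 libraries on the x axis and the log2 fold change of EE30 over LM30 on the y axis. Red points are called higher in EE30 (6710), blue points called lower (5941) and grey points not called, and open circles mark the 13 clock genes, of which 9 lie among the red points.

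Some transcripts were close to absent at 1 time of day. A mean of at least 5 CPM in EE30 with less than 0.5 CPM in LM30 was found for 29 genes, and the opposite pattern for 12 genes. The 10 genes with the largest rises had log2 fold changes of 6.31 to 9.38, and the 10 with the largest falls had −5.91 to −7.26. The rises included ZTL Potri.008G135200 (8.74) and LUX Potri.001G243600 (6.64), which are described with the clock genes. Of those for which the files give no name, 4 are described by ID.

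Potri.015G140800, on chromosome 15 (14748257 to 14750269 in the P. trichocarpa v4.1 coordinates of the files), had the largest rise. It had 78.4, 85.7 and 69.2 CPM in EE30 libraries A, B and C, against 0, 0.313 and 0 CPM in LM30. All 4 counts of this gene in LM30 lay in LM30 B. Its log2 fold change was 9.38 ± 0.307 (SE, edgeR adjusted p = 8.27e-13). Without LM30 B, where no morning count is left, the fitted value was 13.41, which depends on the prior count of the fit and is no bound. The same gene had values of 10.87 at 50 % SWCg and 11.26 at 80 % SWCg, each with few morning counts, and the difference between 30 and 80 % SWCg did not pass the test (edgeR adjusted p = 0.663). Potri.001G010000 on chromosome 1 (667255 to 669678) had 8.67, 10.4 and 9.21 CPM in EE30, against 0, 0.0783 and 0 CPM in LM30, where it had 1 count in all. The ratio of its summed levels, EE30 over LM30, was 342, with a 95 % interval of 61.2 to 13551 that covers counting error only.

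The largest fall was that of Potri.010G251800 on chromosome 10 (22415299 to 22416526). This gene had 0.379, 0.658 and 0.925 CPM in EE30, against 103.8, 87.4 and 119.4 CPM in LM30, and no EE30 library reached 1 CPM. Its log2 fold change was −7.26 ± 0.229 (SE, edgeR adjusted p = 5.77e-13). Potri.008G100500 on chromosome 8 (6267021 to 6269860) had 0, 0 and 0.0881 CPM in EE30, against 7.04, 5.17 and 6.22 CPM in LM30. With 2 counts in EE30 and 224 in LM30, the ratio of LM30 over EE30 was 182, with a 95 % counting interval of 49.9 to 1516.

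The 10 largest rises included 2 neighbouring genes on the same strand of chromosome 14. The upstream gene, at 11394051 to 11396839, had 1320, 1825 and 805.8 CPM in EE30, against 11.6, 7.83 and 5.94 CPM in LM30. The other, at 11413392 to 11416023, had 40.6, 66.5 and 26.9 CPM in EE30, against 0.387, 0.157 and 0 CPM in LM30. Both were highest in EE30 B and lowest in EE30 C, and in both the groups did not overlap. The log2 fold changes were 7.27 ± 0.418 for the upstream gene and 7.81 ± 0.508 for the other (SE, edgeR). The second rests on 7 counts in LM30, and without LM30 A it was 8.92. The upstream gene, with means of 1317 CPM in EE30 and 8.459 CPM in LM30, was also the largest rise in absolute level among the tested genes. The next 4 rose by 917.4 to 1047 CPM. The 226 genes above the upper limit of level, the most abundant ones, were not ranked. In the other direction, the 5 largest absolute falls among the tested genes were of −934.6 to −1185 CPM. The largest was to 163.8 CPM in EE30, against 1349 CPM in LM30.

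The clock genes showed both directions and nearly the whole range of sizes. The 13 genes described are those clock genes whose IDs are paired with names in the sources used here. The study displayed more clock genes than these, so the counts below do not cover its whole list. The 13 genes had been picked for that display of the same libraries, so their count is not independent evidence of a rhythm. All 13 passed the filter on level. Of these, 9 were higher in EE30, 3 were lower and 1 was not called, beside 53.4 % called over all genes tested. The groups did not overlap for 12 of the 13, beside 57.4 % over all genes. Beyond 2-fold, 8 were higher and 3 lower, beside 10.4 % of all genes in either direction. Over the 13 genes the absolute log2 fold change had a median of 2.4, against 0.43 over all genes tested.

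The genes of the morning were lower in EE30, with 1 exception. CCA1, a MYB-type repressor of evening genes in *Arabidopsis*, is represented by 2 paralogues. Potri.004G074300 on chromosome 4 (6180448 to 6184671) had 5.53, 4.88 and 5.51 CPM in EE30, against 109.2, 109.8 and 98.3 CPM in LM30. This is a log2 fold change of −4.31 ± 0.139 (SE, edgeR adjusted p = 7.4e-13), or 19.9 times higher in LM30. Potri.017G144800 on chromosome 17 (14519739 to 14523284) had 35.4, 44.5 and 45.9 CPM in EE30, against 227.3, 192.8 and 189.3 CPM in LM30. Its log2 fold change was −2.28 ± 0.126 (SE, edgeR adjusted p = 3.03e-10). Both paralogues were lower in every EE30 library than in any LM30 library, and the one on chromosome 4 fell further.

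The PRR9 paralogues, which encode a repressor of CCA1 that acts in the morning in *Arabidopsis*, did not share a change. Potri.014G106000 on chromosome 14 (7107684 to 7112847) had 62.5, 73.7 and 66.9 CPM in EE30, against 201.2, 211.9 and 175.1 CPM in LM30, a log2 fold change of −1.53 ± 0.114 (SE, edgeR adjusted p = 9.17e-09). Potri.002G179800 on chromosome 2 (14117543 to 14123501) had 138.4, 135.4 and 150.0 CPM in EE30, against 151.0, 142.6 and 140.1 CPM in LM30. The libraries of this gene overlapped, and its log2 fold change of −0.03 had a 95 % interval of −0.22 to 0.15 (edgeR adjusted p = 0.774). At 50 % SWCg the same gene was called lower in the evening, at −0.24 on the log2 scale (edgeR adjusted p = 0.0262).

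PRR7 follows PRR9 in the day and also represses CCA1 in *Arabidopsis*. Potri.010G215200 on chromosome 10 (20262808 to 20271048) had 218.0, 265.4 and 193.2 CPM in EE30, against 46.1, 41.9 and 40.3 CPM in LM30, a log2 fold change of 2.40 ± 0.134 (SE, edgeR adjusted p = 3.16e-10). Potri.008G046200 on chromosome 8 (2674335 to 2683096) had 174.2, 182.9 and 179.2 CPM in EE30, against 137.5, 118.3 and 122.6 CPM in LM30. This second paralogue rose by 0.50 ± 0.0734 on the log2 scale (SE, edgeR adjusted p = 2.2e-05), the smallest change among the 12 called clock genes.

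PRR5, the latest of the 3 PRR genes in the *Arabidopsis* day, rose in both paralogues. Potri.012G005900 on chromosome 12 (173794 to 180376) had 553.3, 632.9 and 601.9 CPM in EE30, against 30.4, 17.4 and 15.6 CPM in LM30, a log2 fold change of 4.81 ± 0.239 (SE, edgeR adjusted p = 8.56e-11). Potri.015G002300 on chromosome 15 (112021 to 117679) had 286.5, 342.7 and 312.6 CPM in EE30, against 84.0, 43.2 and 50.9 CPM in LM30, a log2 fold change of 2.40 ± 0.236 (SE, edgeR adjusted p = 2.58e-07). In both paralogues LM30 A was the highest morning library. The A library was also the highest for both at the other water levels, with 44.3 CPM in LM50 A and 38.9 CPM in LM80 A for the paralogue on chromosome 12.

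The 3 largest rises of the list were those of both genes named ZTL and of 1 gene named LUX. ZTL encodes an F-box protein that senses blue light and marks PRR5 for degradation in *Arabidopsis*, where the closely related FKF1 and LKP2 belong to the same family. Which of these each poplar gene is nearest to was not examined. Potri.008G135200 on chromosome 8 (8997951 to 9001630) had 165.1, 141.0 and 160.8 CPM in EE30, against 0.309, 0.235 and 0.557 CPM in LM30, where its counts summed to 13. Its log2 fold change of 8.74 ± 0.218 (SE, edgeR adjusted p = 1.07e-13) corresponded to 427.3-fold. Potri.010G105700 on chromosome 10 (12720705 to 12724718) had 127.1, 107.1 and 129.7 CPM in EE30, against 1.70, 1.65 and 1.76 CPM in LM30, a log2 fold change of 6.15 ± 0.262 (SE, edgeR adjusted p = 1.64e-11). Both genes had few counts in the morning and more than 100 CPM in every evening library.

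LUX encodes the DNA-binding subunit of the evening complex in *Arabidopsis*. Potri.001G243600 on chromosome 1 (26128861 to 26132400) had 19.8, 13.6 and 17.8 CPM in EE30, against 0.387, 0.0783 and 0 CPM in LM30, with 6 counts in LM30 in all. Its log2 fold change was 6.64 ± 0.485 (SE, edgeR adjusted p = 7.48e-09), and without LM30 A it was 8.43. Potri.009G035000 on chromosome 9 (4518234 to 4521566) had 112.7, 102.7 and 83.4 CPM in EE30, against 5.49, 3.13 and 4.36 CPM in LM30, a log2 fold change of 4.52 ± 0.187 (SE, edgeR adjusted p = 1.16e-11). GI encodes a large protein of the evening that works with the ZTL family. Potri.005G196700 on chromosome 5 (20340433 to 20351684) had 500.7, 466.5 and 482.7 CPM in EE30, against 121.5, 103.6 and 89.8 CPM in LM30, a log2 fold change of 2.2 ± 0.104 (SE, edgeR adjusted p = 5.03e-11).

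**Figure D2:**
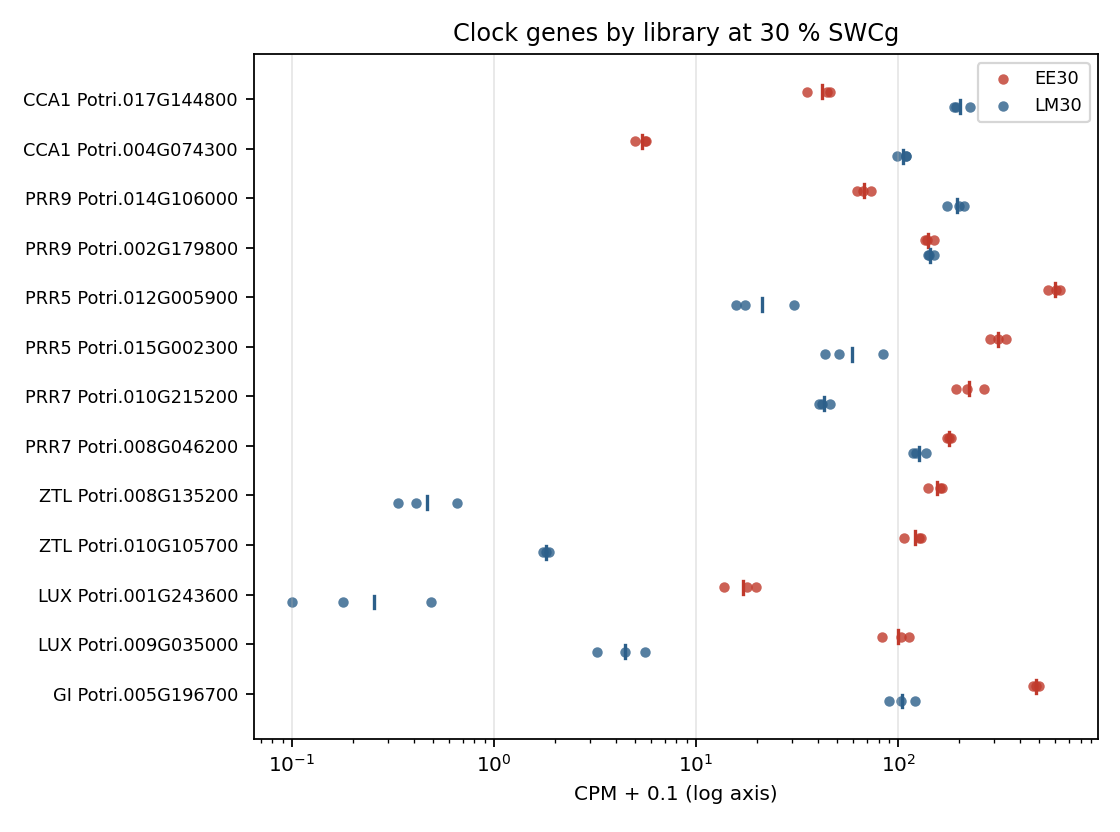
Levels of the 13 clock genes in CPM plus 0.1 on a log axis, with 1 point per library (A, B and C), a vertical bar at the mean, and EE30 in red above LM30 in blue. The groups overlap only for PRR9 Potri.002G179800, and both ZTL genes and LUX Potri.001G243600 lie below 2 CPM in each LM30 library.

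The balance within the 6 pairs of paralogues was compared between the times of day. On the scale of log2((CPM + 0.1)/(CPM + 0.1)), which compares genes without correction for their length, only the difference between times is read. For PRR5 the log2 ratio of Potri.012G005900 to Potri.015G002300 was 0.927 ± 0.036 in EE30 and −1.49 ± 0.198 in LM30 (SD, n = 3 each). For PRR7 the log2 ratio of Potri.010G215200 to Potri.008G046200 was 0.323 ± 0.214 in EE30 and −1.56 ± 0.0562 in LM30 (SD, n = 3 each). The differences, EE30 minus LM30, were 2.02 for CCA1, −1.5 for PRR9, 2.42 for PRR5, 1.88 for PRR7, 2.37 for ZTL and 1.85 for LUX. For ZTL and LUX 1 paralogue had only 13 and 6 counts in LM30, so these values depend on the added 0.1 CPM. The log2 ratios of ZTL and LUX in LM30 were −2.01 ± 0.453 and −4.39 ± 0.996 (SD, n = 3 each). In each of the 6 pairs the libraries did not overlap, and the two-sided exact permutation p was 0.1, the smallest that 3 against 3 libraries allow, so none of the differences could pass a threshold of 0.05. Reads that align to more than 1 place were not counted, so closely similar paralogues lose reads.

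The time-of-day change at 30 % SWCg was compared with that at the other water levels, which rest on libraries of their own. At 50 % SWCg 12539 genes (52.9 %) were called between evening and morning, and at 80 % SWCg 12283 genes (51.8 %). Of the 12651 genes called at 30 % SWCg, 9457 were called at all 3 levels, 1013 also at 50 % alone, 642 also at 80 % alone and 1539 at 30 % alone. To compare sizes without choosing genes on the libraries compared, the 12539 genes called at 50 % SWCg were used. Over these genes the absolute log2 fold change had a median of 0.693 at 30 % SWCg and 0.696 at 80 % SWCg, and 98.3 % had the same direction at both. The difference of these medians was −0.00235. Single evening libraries, each set against the mean of its morning group, gave a combined SD of 0.058 over EE30 and EE80. This SD leaves out the spread among the morning libraries, so it is not an error of the difference. Across all tested genes the log2 fold changes at 30 and 80 % SWCg had r = 0.916 and rho = 0.872, a description over 23700 genes that share the same fit, clone and run tags.

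**Figure D3:**
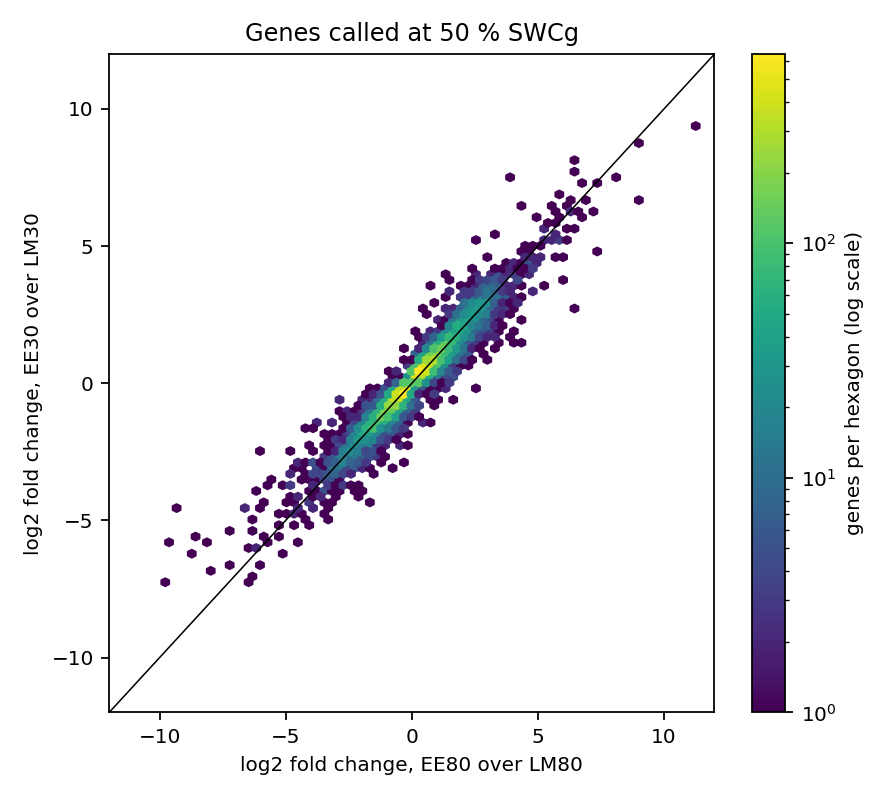
Hexagons count the 12539 genes called at 50 % SWCg by their log2 fold change of EE80 over LM80 (x axis) and of EE30 over LM30 (y axis), with the colour on a log scale and the line of equal change in black. Most genes lie along the line, and 98.3 % have the same sign on both axes.

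The 1539 genes called at 30 % SWCg alone were not shown to differ from the other levels. Of these, 658 were higher in EE30 and 881 lower, their median size was 0.505 on the log2 scale, and 1192 (77.5 %) had the same sign at 50 and 80 % SWCg. Over all tested genes, 86.7 % had the same direction at 30 and 50 % SWCg and 85.5 % at 30 and 80 %, each pair taken alone. For none of the 1539 genes did the difference of the change between 30 and 80 % SWCg pass the test, with a smallest adjusted p of 0.284 (edgeR). An unadjusted p below 0.05 was found for 349 of them, beside 8.61 % of all tested genes. The 1539 genes were chosen as called at 30 % and not at 80 % SWCg in the same libraries, which by itself favours small p-values.

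The test of the difference itself, (EE30 − LM30) − (EE80 − LM80), called 0 of 23700 genes with the quasi-likelihood test of edgeR, with a smallest adjusted p of 0.0912. An unadjusted p below 0.05 was found for 2040 genes (8.61 %). DESeq2 called 24 genes, and a likelihood ratio test in edgeR with robust dispersions called 44, of which 16 were shared by these tools. For the difference between 30 and 50 % SWCg, each of the 3 tools called 0 genes, and 1282 genes (5.41 %) had an unadjusted p below 0.05 with edgeR. The 95 % interval of the difference between 30 and 80 % SWCg had a median width of 0.43 to either side on the log2 scale, and it lay within ±1 for 16932 genes (71.4 %).

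The 2 genes with the smallest p in each direction of the difference between 30 and 80 % SWCg have no name in the files. In all, 4 genes had an adjusted p below 0.1 (edgeR), 3 of them among those described. Potri.003G139300 on chromosome 3 (15564279 to 15565928) had 24.9, 26.0 and 24.5 CPM in EE30, against 34.2, 30.9 and 35.1 CPM in LM30. At 80 % SWCg it had 46.8, 49.9 and 53.3 CPM in EE80, against 25.1, 38.2 and 35.2 CPM in LM80. The gene was therefore called lower in the evening at 30 % SWCg (log2 fold change −0.41) and higher at 80 % SWCg (0.61), and the groups did not overlap at either level. The difference of −1.02 had an adjusted p of 0.0912 (edgeR), and without LM80 A it was −0.86 with an adjusted p of 0.0339. Without LM80 B it was −1.15 with an adjusted p of 0.0396. Leaving out any other library of the groups at 30 and 80 % SWCg raised the adjusted p. It was then 0.103 (without EE30 C) to 0.407 (without LM80 C), and 0.565 with the compared libraries alone (edgeR).

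Potri.001G105900 on chromosome 1 (8510988 to 8514249) was called lower in the evening at both water levels, with 8.18, 9.15 and 7.14 CPM in EE30 and 53.6, 51.2 and 44.9 CPM in LM30. The same gene had 33.3, 24.2 and 25 CPM in EE80 and 87.5, 89.5 and 82.7 CPM in LM80, and the difference was −0.96 (edgeR adjusted p = 0.0912). Potri.008G203600 on chromosome 8 (14772462 to 14779043) had 80.1, 81.0 and 75.7 CPM in EE30, against 54.7, 55.2 and 56.2 CPM in LM30, while it had 61.7, 60.1 and 61.0 CPM in EE80 and 59.7, 57.5 and 61.0 CPM in LM80. Its groups stood apart at 30 % SWCg and overlapped at 80 % SWCg, and the difference was 0.47 (edgeR adjusted p = 0.0912). Potri.002G138600 on chromosome 2 (10403866 to 10407038) had a difference of 0.64 (edgeR adjusted p = 0.241). DESeq2 called all 4 genes, with adjusted p-values of 0.000126 to 0.00369.

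The evening changes of the clock genes had close to the same size at the 3 water levels. Their median log2 size was 2.40 at 30 %, 2.43 at 50 % and 2.45 at 80 % SWCg. The change was larger in size at 30 % than at 80 % SWCg in 9 of the 13 genes, and the other 4 were PRR9 Potri.002G179800, PRR7 Potri.010G215200, ZTL Potri.008G135200 and LUX Potri.001G243600. Without LM30 A the change of this LUX gene at 30 % SWCg, 8.43, was larger than the 6.99 at 80 % SWCg. None of the 13 passed the test of a difference between 30 and 80 % SWCg. GI had the smallest adjusted p among them, 0.629 (edgeR), with a log2 fold change of 2.2 at 30 %, 1.85 at 50 % and 1.94 at 80 % SWCg. For CCA1 Potri.004G074300 the values were −4.31, −4.29 and −4.04 in the same order of water levels, and the difference between 30 and 80 % SWCg was −0.27 (edgeR adjusted p = 0.701).

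**Figure D4:**
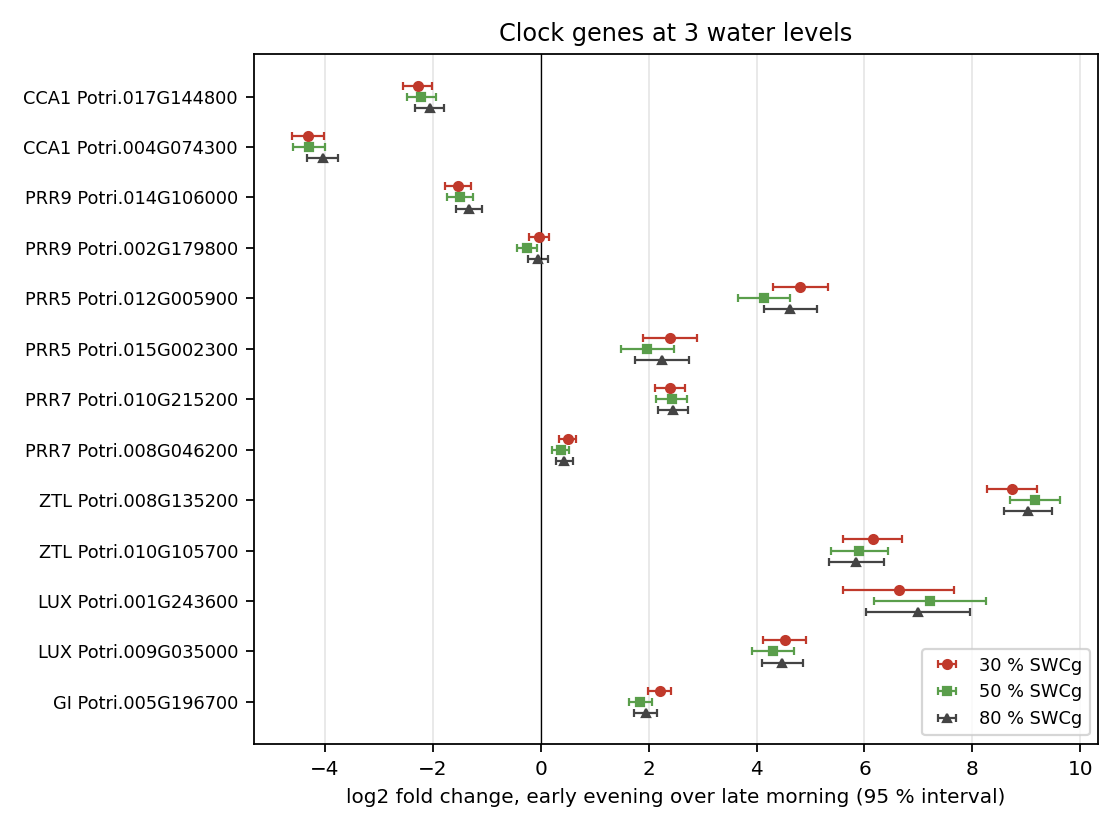
Log2 fold change of early evening over late morning for the 13 clock genes, with 95 % intervals, at 30 % SWCg (red circles), 50 % (green squares) and 80 % (grey triangles). The median size is 2.40, 2.43 and 2.45, and no gene passed the test of a difference between 30 and 80 % SWCg.

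Direction went with level. Genes were split into deciles of average level, numbered from the lowest. In decile 10 (median 164 CPM), 23.2 % were higher in EE30 and 42.7 % lower. In decile 4 (median 8.32 CPM) the order was the opposite, with 36.8 % higher and 19.2 % lower. The same lean in decile 10 was seen at 50 % SWCg (22.2 % higher in the evening and 44.7 % lower) and at 80 % SWCg (18.9 % and 48.9 %). In decile 1 (median 0.551 CPM) 9.87 % were higher in EE30 and 13.3 % lower, but without LM30 B both shares were 9.32 %, so the lean there rests on that library. In decile 8 the shares were 30.9 % higher and 29.1 % lower, but 27.9 % and 28.9 % without LM30 B, and 27.5 % and 31.7 % at 80 % SWCg. The 226 genes above the upper limit, which were not in the main test, held 34.3 % ± 0.84 of all counts in EE30 and 39.7 % ± 1.9 in LM30 (SD, n = 3 libraries each). In a fit without the limits 34 of these were called higher in EE30 and 115 lower (65.9 % called), beside 6841 higher and 5437 lower of the 23700 genes between the limits (51.8 % called).

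**Figure D5:**
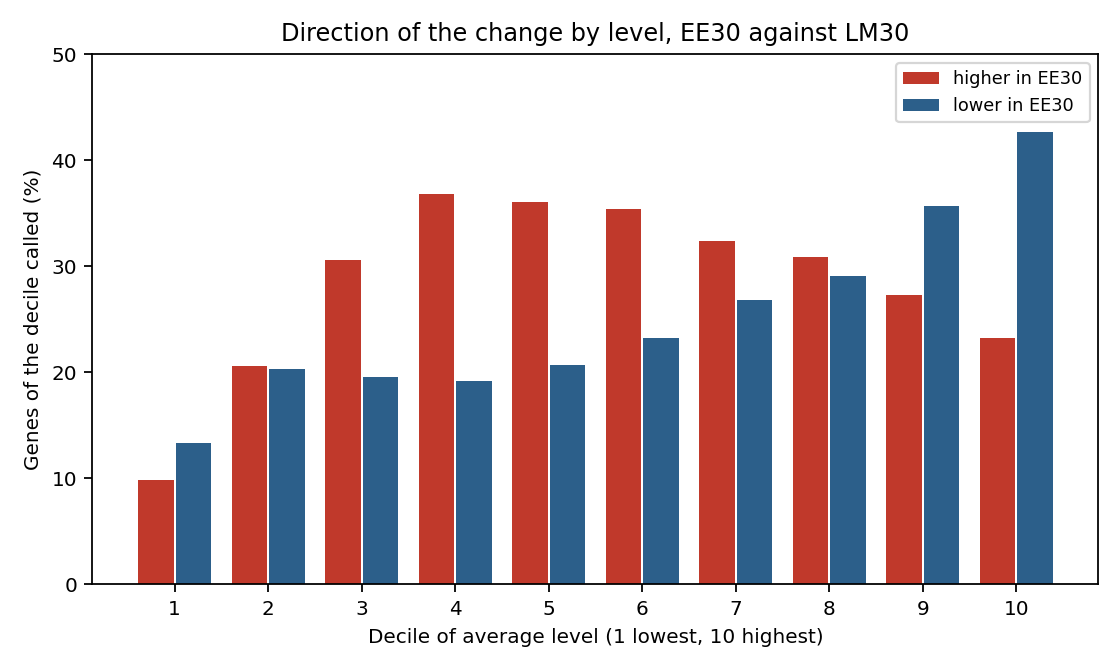
Share of the genes in each decile of average level (x axis, 1 lowest and 10 highest) that were called higher (red) or lower (blue) in EE30 than in LM30, in percent. Higher calls lead most clearly in deciles 3 to 6 and lower calls in deciles 9 and 10, while in decile 8 the order turns without LM30 B (27.9 % higher and 28.9 % lower).

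The number of exons also went with direction, and gene length did not follow the same order. Exons were counted after overlapping entries of a gene were merged. Among genes with 1 exon 23.5 % were higher in EE30 and 29.5 % lower, whereas among those with 11 to 20 exons 34 % were higher and 21.6 % lower. The gradient was also seen among genes of middle level (deciles 4 to 8), with 27.2 % higher and 34.5 % lower at 1 exon and 41.7 % higher and 16 % lower at 11 to 20 exons. Genes called higher in EE30 had a median of 6 exons, against 4 in genes called lower. By summed exon length, 26.7 % of the quintile of longest genes were higher in EE30 and 28.4 % lower, against 27.3 % and 20.8 % of the quintile of shortest genes. The median length was 1977.5 bases in genes called higher and 2063 bases in genes called lower. At 80 % SWCg the shares for 11 to 20 exons in these deciles were 39.8 % higher and 17.2 % lower in the evening. The median SE of the log2 fold change in these deciles was 0.104 for 11 to 20 exons and 0.145 for 1 exon, and its part in the shares was not tested. All of these values are descriptions over genes.

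Neighbouring genes more often changed in the same direction than distant ones. Of 6915 pairs of adjacent genes that were both called, 58.2 % moved the same way, against 53.3 % of genes 2 places apart, 50.7 % of genes 5 places apart and 49.8 % of genes 100 places apart. Among adjacent genes without overlap, the share was 61.2 % of 3545 pairs on the same strand, 57 % of 1720 divergent pairs and 51.3 % of 1473 convergent pairs. Adjacent genes that overlapped shared direction in 91.7 % of 12 divergent pairs, 81.8 % of 33 pairs on the same strand and 59.1 % of 132 convergent pairs. The counts ignored strand, so reads from overlapping genes cannot be told apart.

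A smaller group of genes was steady between the times of day. For 1153 genes (4.86 % of those tested) the 95 % interval of the log2 fold change lay within ±0.25, and 0 of these were called. Their median level was 45.5 CPM, against 16.8 CPM over all tested genes, and PRR9 Potri.002G179800 was the only clock gene among them. A narrow interval needs a small SE, and the median SE was 0.499 in level decile 1 against 0.0947 in level decile 8. The limit therefore favours genes of higher level, and the level and share of the steady genes follow in part from it.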

How the data were processed

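RNA of whole poplar leaves was sequenced as stranded single-end libraries, 18 in all. Per the labels and the methods of the study, the authors used Trimmomatic (no version stated in the sources), HISAT2 2.2.1 against the v4.1 genome of P. trichocarpa, SAMtools 1.3.1 and featureCounts 2.0.1. The deposited table holds unnormalized and unfiltered read counts, 1 column per library. The file header names no option for strand or for reads with several alignments, so by the defaults of the tool strand was ignored and such reads were left out.

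Groups were taken from the sample titles. In R 4.3.3, genes whose log2 CPM averaged over all libraries lay between −2 and 9 were fitted with edgeR 4.0.16 (TMM, quasi-likelihood F test, 1 model with 6 groups and no block), with Benjamini-Hochberg adjustment at 0.05. Total counts per library were 17348563 to 48110546 over the series. Intervals of ratios cover counting error only. Log2 CPM of single libraries used a prior count of 2. Figures were drawn with matplotlib 3.10.9 in Python 3.11.15. The fit was run on simulated counts in which few genes changed between EE30 and LM30. The large share of calls seen here was not simulated, so that run does not test the fit in this setting.

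Genes were named by rule: the largest rises and falls among called genes with at least 5 CPM in the higher group and groups that did not overlap, the genes nearest to a call in the difference between 30 and 80 % SWCg, and the clock genes with names. Since the files do not pair IDs with names, only 2 IDs in each direction are printed per comparison. The 2 neighbouring genes on chromosome 14 and the A libraries of PRR5 were chosen after their values were seen. The members and lists were chosen with earlier results of these data known. Other planned gene lists, cell type markers and promoter motifs were not run, since no gene descriptions or sequences were used here. Alternatives were DESeq2 1.42.0 and its size factors, a robust dispersion with a likelihood ratio test, no filter, filterByExpr, the compared libraries alone, a replicate block and leaving out each library in turn. Chosen after seeing the data were the fits without EE30 C and LM30 B, the block within each time of day, and the level deciles without LM30 B.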

Additional observations from a re-analysis of the deposited data

How the results depend on the processing

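The direction of every shared call was kept: in each of the alternatives run, 0 genes called in both fits for EE30 against LM30 had opposite signs, and 84.6 % to 99.4 % of the calls were shared. The number called was 10838 (45.7 %) with the compared libraries alone, 12610 (43.2 % of 29198 genes) with no filter, 12433 with DESeq2 and 12950 with the robust dispersion and likelihood ratio test, and leaving out each library in turn gave 11169 to 12617. The share of calls that were higher in EE30 was 49.8 % with DESeq2, 50.1 % with its size factors in edgeR and 55 % with no filter. The clock genes stayed at 9 higher and 3 lower in each alternative run. Among the counts of calls, that for the difference between 30 and 80 % SWCg moved, with 0 genes in the quasi-likelihood test, 24 with DESeq2, 44 with the likelihood ratio test and 0 to 1 when libraries were left out in turn. The single gene was Potri.003G139300, called without LM80 A or without LM80 B, and the cause was not tested. Fold changes that rest on few counts in 1 group kept their direction and call but moved by over 1.5 times without 1 library. On the log2 scale Potri.015G140800 was 13.41 without LM30 B and 8.78 without LM30 A, Potri.001G010000 10.36 without LM30 B, LUX Potri.001G243600 8.43 and Potri.014G159900 8.92 without LM30 A, and Potri.008G100500 −9.71 without EE30 C. The letters were not taken as pairs, because the labels do not state a pairing. Between EE30 and LM30, libraries of the same letter had deviations from their group means whose correlation was 0.14 (A), 0.209 (C) and 0.0836 (B). Without values for unlike letters beside them, these do not decide whether the letters link libraries. With the replicate block 6821 genes were called higher and 6017 lower. With a block within each time of day, added after seeing the data, 6945 were higher and 6254 lower, and 0 genes passed for either difference between water levels. In a fit without the limits, 3.47 % of 5272 genes below the lower limit were called, against 51.8 % of those between the limits. Promoter windows were not analysed here, so their other length was not run.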

Other observations

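Libraries with the same letter were compared between water levels within a time of day. The same letter was the highest of its group at 30, 50 and 80 % SWCg in 19.1 % of the 23700 tested genes in the early evening and in 14.9 % in the late morning, where letters without any relation would give 11.1 %. Among the 13 clock genes this held for 3 in the early evening and for 3 in the late morning, where it was the A library each time. Across genes, the deviations of libraries of the same letter from their group means were all positively correlated in the early evening, but not in the late morning. Between EE30 and EE50 the correlations were 0.0902 for A, 0.251 for B and 0.081 for C. Between EE30 and EE80 they were 0.206, 0.197 and 0.378 in the same order. Between LM30 and LM50 they were 0.129, 0.0307 and 0.157, and between LM30 and LM80 0.0689, −0.111 and 0.12. The meaning of the letters is not stated in the labels.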
